A study of Homo sapiens with 9 samples.

Results

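The p53 target genes described here are 33 genes that the tumour suppressor p53 is known to switch on directly, taken as a list of symbols out of the 36601 genes of the count matrices. They were measured in U2OS cells, a human osteosarcoma line, by single-cell RNA sequencing in which unique molecular identifiers (UMIs) count transcripts at their 3′ ends. The cells carried RPB1, the catalytic subunit of RNA polymerase II, with a tag at its N-terminus, either HaloTag, a modified dehalogenase to which dyes can be attached, or Dendra2, a fluorescent protein whose colour can be switched by light. The C-terminal domain (CTD) of RPB1, a tail of repeats that recruits RNA-processing factors, was 25, 52 or 70 repeats long, written here as 25R, 52R and 70R. The normal human protein has 52. There were 6 genotypes, HaloTag-RPB1-25R, HaloTag-RPB1-52R and HaloTag-RPB1-70R as well as Dendra2-RPB1-25R, Dendra2-RPB1-52R and Dendra2-RPB1-70R, each with 1 library, and all of them had been kept in α-amanitin, an RNA polymerase II inhibitor, at 1 µg per ml for 6 days. The 9 samples in the labels reduce to these 6 libraries because every HaloTag library has 2 sequencing runs, joined in the count matrices. The Dendra2 libraries have 1 run each, and the effects of tag and of sequencing run cannot be told apart. The labels do not say whether a line was a single clone, and no library without a tag or without α-amanitin was analysed here.

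The p53 protein is a transcription factor that accumulates when DNA is damaged or when transcription, ribosome production or metabolism is disturbed. It binds a pair of 10-base decamers near its targets and raises genes that stop the cell cycle, start apoptosis, repair DNA and adjust metabolism. It also raises MDM2, whose product marks p53 for degradation and so closes a negative feedback loop. Inhibition of RNA polymerase II is itself a known trigger of p53. All 6 genotypes had received the inhibitor, and its part in the levels given here was not tested. The levels compared between libraries below are sums over cells, in which fewer expressing cells and less RNA per cell cannot be told apart. The share of single cells with a UMI is given beside them for CDKN1A and GDF15.

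Sites of this kind are shown here because they are the sequence that p53 binds near its targets. RefSeq promoters (GRCh38.p14) were found for 26 of the 33 members. In windows of 2500 bases on either side of a gene start, 14 of these 26 members (53.8%) held a p53 full site, meaning a pair of decamers with no gap and at most 2 mismatches outside the 4 core bases, which were required. The same windows held one in 1252 of 27305 genes (4.59%). With at most 1 mismatch the counts were 5 members (19.2%) and 198 genes (0.725%), and with no mismatch they were 2 members (7.69%) and 32 genes (0.117%). The site reads the same on both strands, and a match is a description of letters. Below, each site is in capitals with 20 bases on either side, 5′ to 3′ on the strand of its gene, for the 5 members with at most 1 mismatch and for CDKN1A, MDM2 and FAS.
PLK2: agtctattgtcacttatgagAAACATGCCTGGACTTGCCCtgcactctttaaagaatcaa
ZMAT3: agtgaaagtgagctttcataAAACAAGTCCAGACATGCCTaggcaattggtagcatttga
CCNG1: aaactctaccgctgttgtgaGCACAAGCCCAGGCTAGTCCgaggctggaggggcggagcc
DDB2: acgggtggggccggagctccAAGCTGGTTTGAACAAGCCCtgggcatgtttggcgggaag
EDA2R: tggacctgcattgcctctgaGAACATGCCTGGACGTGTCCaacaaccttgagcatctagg
CDKN1A: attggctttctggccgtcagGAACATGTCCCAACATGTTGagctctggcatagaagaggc
MDM2: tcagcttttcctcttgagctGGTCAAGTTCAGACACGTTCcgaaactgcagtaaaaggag
FAS: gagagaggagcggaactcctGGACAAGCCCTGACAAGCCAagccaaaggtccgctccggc

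In GRCh38, the PLK2 window was chr5:58462254-58462313 on the minus strand. The centre of its site was at position −2198 from a RefSeq start, as for all positions given here. The ZMAT3 window was chr3:179070168-179070227 on the minus strand, in an intron at −856, before a start inside the gene. The CCNG1 window, chr5:163437906-163437965 on the plus strand, lay in an intron, with the centre 341 bases after a start. The DDB2 window, chr11:47214949-47215008 on the plus strand, overlapped an exon, and the site spanned a start, with its centre 5 bases after it. The EDA2R window, chrX:66638693-66638752 on the minus strand, was intronic, 355 bases after a start. The CDKN1A site, in chr6:36676429-36676488 on the plus strand, lay at −2255 and overlapped an exon of a longer transcript in GENCODE v44. The MDM2 site, in chr12:68808903-68808962 on the plus strand, was in an intron at −84, before a start inside the gene. The FAS site, in chr10:88991289-88991348 on the plus strand, overlapped an exon at −112, also before a start inside the gene. Within the RefSeq promoters themselves (250 bases before to 50 after a start), an exact decamer was present in 7 of 26 members (26.9%) and in 8.06% of all 27305 genes, and an exact pair with a gap of up to 13 bases was present in 1 member, DDB2, and in 10 genes (0.0366%).

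Between 2718 and 4677 cells per library were kept, with 52535137 to 58408637 UMIs in all and a median of 10812 to 18739 UMIs per cell. Mitochondrial transcripts had a median share of 5.41% to 9.08%, and any 2 libraries shared at most 7 cell barcodes (0.224% of the smaller). VIM, the mesenchymal intermediate filament, stood at 2494 to 3726 CPM (UMI counts scaled to a common library total and not by gene length), and KRT8 and KRT18, keratins of simple epithelia, at 152 to 566 and 741 to 1247 CPM. Of the other mesenchymal and bone markers SPARC had 129.9 to 248 CPM and COL1A1 43.2 to 212 CPM, while COL1A2 reached at most 0.198 CPM, TWIST1 0.036 CPM and ALPL 4.94 CPM. The epithelial defining markers EPCAM and CDH1 reached at most 7.86 and 0.421 CPM, although the labels also call the cells epithelial, and the summed leukocyte and endothelial markers were at most 2.71 and 0.623 CPM. A count of 18761 genes passed the filter on low counts, among them 31 members. SPATA18, a mediator of mitochondrial quality control, had 0 UMIs in every library, which allows up to 3 counts or 0.0505 to 0.0603 CPM, counting error only. TNFRSF10A, the death receptor DR4, had at most 1 UMI in a library and was not tested.

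With 25 repeats most p53 targets stood at higher levels than with 52 repeats. The fitted log2 difference was above 0 for 29 of 31 members (50.8% of all genes tested), with a median of 0.68, beside 0.0080 over all 18761 genes. Both 25R libraries lay above both 52R libraries in 23 members, against 19.5% of all genes, and below them in 1 member, XPC (19.3%). No member passed edgeR's quasi-likelihood test at an adjusted p under 0.05, where 0.0213% of all genes were called higher and 0.0213% lower. At an unadjusted p under 0.05, 20 members were higher (6.26% of all genes) and 0 were lower (6.71%). DESeq2 called 6 members higher (1.03%), namely CDKN1A, GADD45A, ZMAT3, FAS, EDA2R and RRM2B, and 0 lower (1.70%). In data simulated over 18356 genes with the fitted spread of dispersions, edgeR recovered 0% of genes changed 2-fold and 40% of genes changed 4-fold in this comparison. DESeq2 recovered 36% and 97%, with 112 false calls among 245. With dispersions on the trend, over 18408 genes, edgeR recovered 61% and 100% with 6 false calls among 167. DESeq2 then recovered 65% and 100% with 16 false calls among 181.

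**Figure D1:**
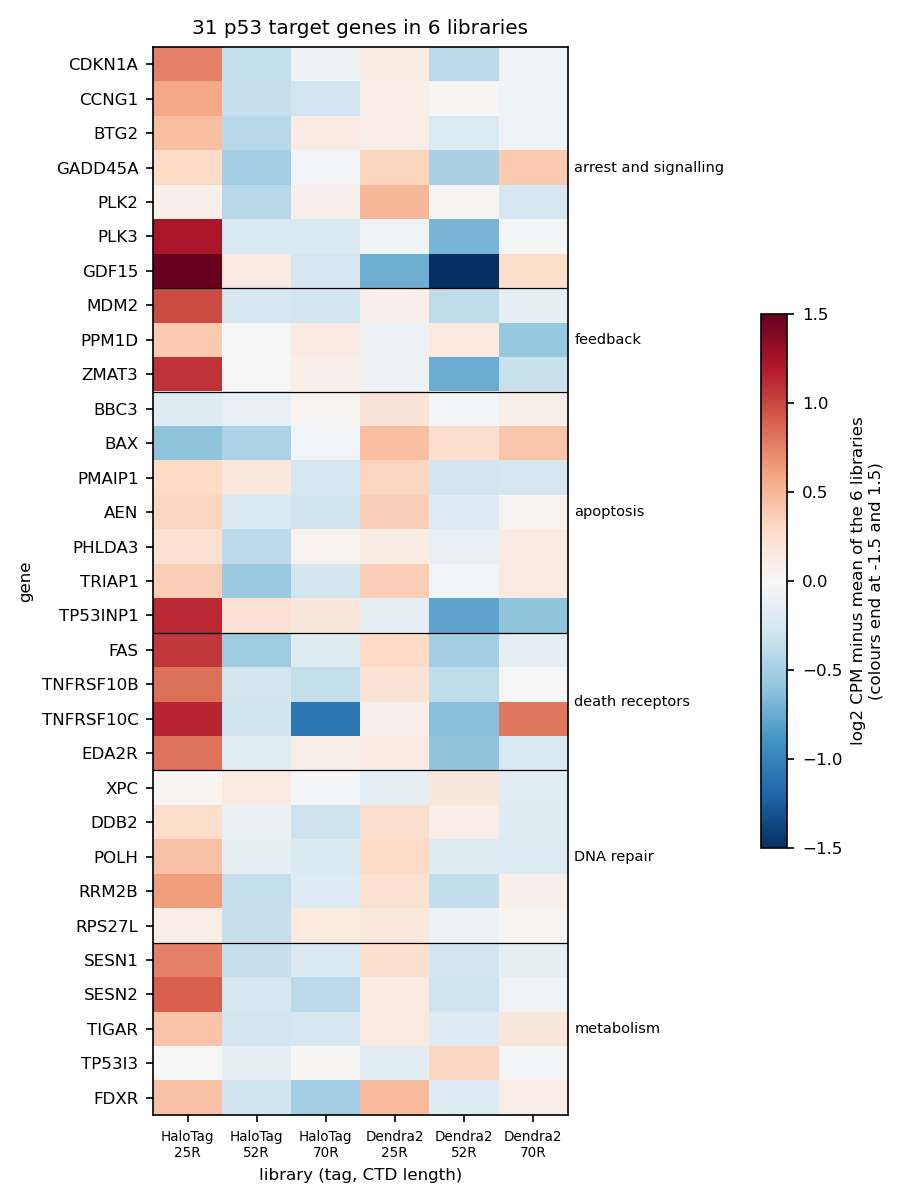
Levels of the 31 tested p53 target genes (rows, grouped by role) in the 6 libraries (columns, by tag and CTD length). Colour gives the log2 CPM of a library minus the gene's mean over the 6 libraries, and the HaloTag 25R column holds the highest value of 20 of the 31 genes.

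The difference was larger with the HaloTag. The members' median log2 difference between 25R and 52R was 0.87 in the HaloTag pair and 0.48 in the Dendra2 pair, beside 0.00052 and 0.020 over all genes, with 1 library on each side, and the difference between these medians was not tested. The HaloTag 25R library held the highest of the 6 values for 20 members (26.4% of all genes), and the Dendra2 25R library for 8 (15%). Without the HaloTag 25R library the median was 0.44, with 28 of 31 members above 0, and the Dendra2 25R library alone lay above both 52R libraries in 25 members (35.3%). Without the Dendra2 25R library the median was 0.90 and edgeR called 11 members higher, in a fit that called 782 of 19919 genes in either direction and in which the lone 25R library is assumed to vary like the other groups. Both 25R libraries exceeded all 4 others in 16 members (10.1%).

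**Figure D2:**
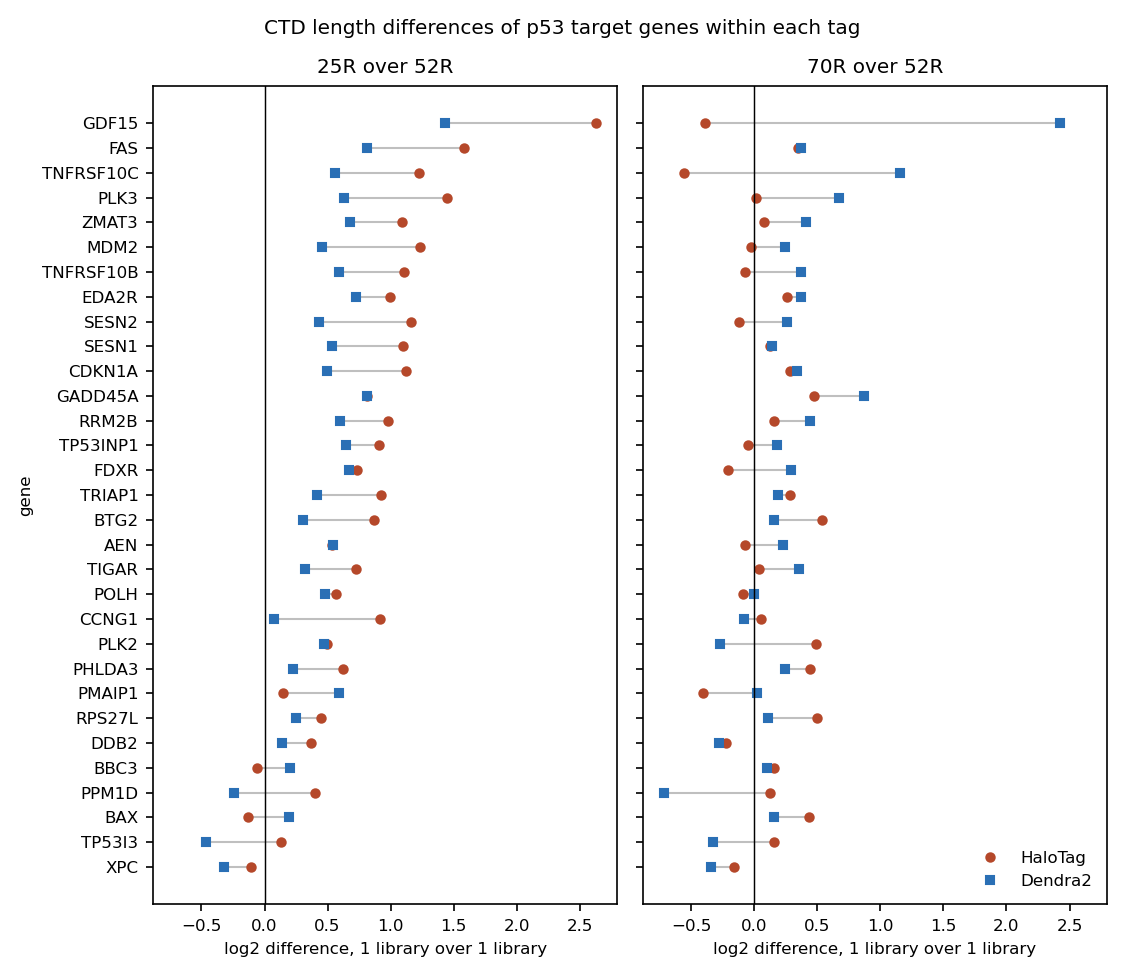
Log2 difference of each tested p53 target gene between 25R and 52R (left) and between 70R and 52R (right), in the HaloTag pair (circles) and the Dendra2 pair (squares), each 1 library over 1 library. In the left panel 26 of 31 genes lie above 0 in both tags (32.2% of all genes), and in the right panel 15 do (27.2%).

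Among the arrest genes and signals, CDKN1A, which encodes the cyclin-dependent kinase inhibitor p21, stood at 197, 90.8 and 110.3 CPM in the HaloTag 25R, 52R and 70R libraries and at 126, 88.9 and 112 CPM in the Dendra2 25R, 52R and 70R libraries. Both 25R values were the highest of their tag, and the 52R and 70R values lay between 88.9 and 112 CPM with no overlap of 25R with either. Its log2 difference between 25R and 52R was 0.82 ± 0.21 (SE; edgeR adjusted p = 0.247, DESeq2 adjusted p = 0.0344). In cells thinned to 5000 UMIs, CDKN1A was seen in 56.6% and 37.2% of HaloTag and Dendra2 25R cells, against 31.3% and 28.1% of 52R cells. GADD45A, a stress sensor that acts on mitogen-activated kinases and on DNA demethylation, was at 189, 108 and 149 CPM in HaloTag 25R, 52R and 70R cells and at 193, 109.8 and 200.4 CPM in the Dendra2 cells of these lengths. The 52R libraries were thus the lowest in both tags, and the 25R difference of 0.81 ± 0.17 was nearly equal in the HaloTag pair (0.81) and the Dendra2 pair (0.81).

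BTG2, an antiproliferative cofactor of mRNA deadenylation, was at 49.3 and 38.5 CPM in HaloTag and Dendra2 25R cells, against 26.99 and 31.1 CPM in 52R cells. CCNG1, cyclin G1, had 165 and 118 CPM in HaloTag and Dendra2 25R cells, against 87.2 and 112 CPM in 52R cells, so that its Dendra2 pair differed by 0.078. The polo-like kinase PLK2 had 82.4 and 110.1 CPM in HaloTag and Dendra2 25R cells, against 58.6 and 79.4 CPM in 52R cells, and the groups did not overlap. PLK3, a stress-responsive relative, had 33.8 and 13.9 CPM in HaloTag and Dendra2 25R cells, against 12.3 and 8.97 CPM in 52R cells, a log2 difference of 1.09 ± 0.34. Of the 7 genes of this role, 7 had a fitted difference above 0 (50.8% of all genes). In 6 the groups did not overlap, with 25R higher (19.5%).

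GDF15, a secreted stress cytokine of the transforming growth factor β family, had a wide range. It was at 83.2, 13.4 and 10.2 CPM in HaloTag 25R, 52R and 70R cells and at 7.34, 2.70 and 14.6 CPM in the Dendra2 cells of these lengths. The HaloTag 25R value lay far above the rest, while the Dendra2 25R value lay below the HaloTag 52R value, so the groups overlapped. Its log2 difference between 25R and 52R was 2.24 ± 0.85 (edgeR adjusted p = 0.357). In thinned cells GDF15 was seen in 25.2% and 2.48% of HaloTag and Dendra2 25R cells, against 4.42% and 0.627% of 52R cells. DDIT3, a stress transcription factor of the ATF4 pathway named here after its values were seen, was likewise highest in HaloTag 25R cells, at 41.9, 9.34 and 12.4 CPM in HaloTag 25R, 52R and 70R cells and 6.19, 10.3 and 10.8 CPM in the Dendra2 cells of these lengths. The list of ATF4 targets was mixed between 25R and 52R. Of 17 genes 12 were above 0 (50.8% of all genes), with a median of 0.075. ATF5 and PHGDH, of the same list, were lowest in HaloTag 25R cells, at 20.7 and 104 CPM. The part of DDIT3 in the GDF15 result was not tested.

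**Figure D3:**
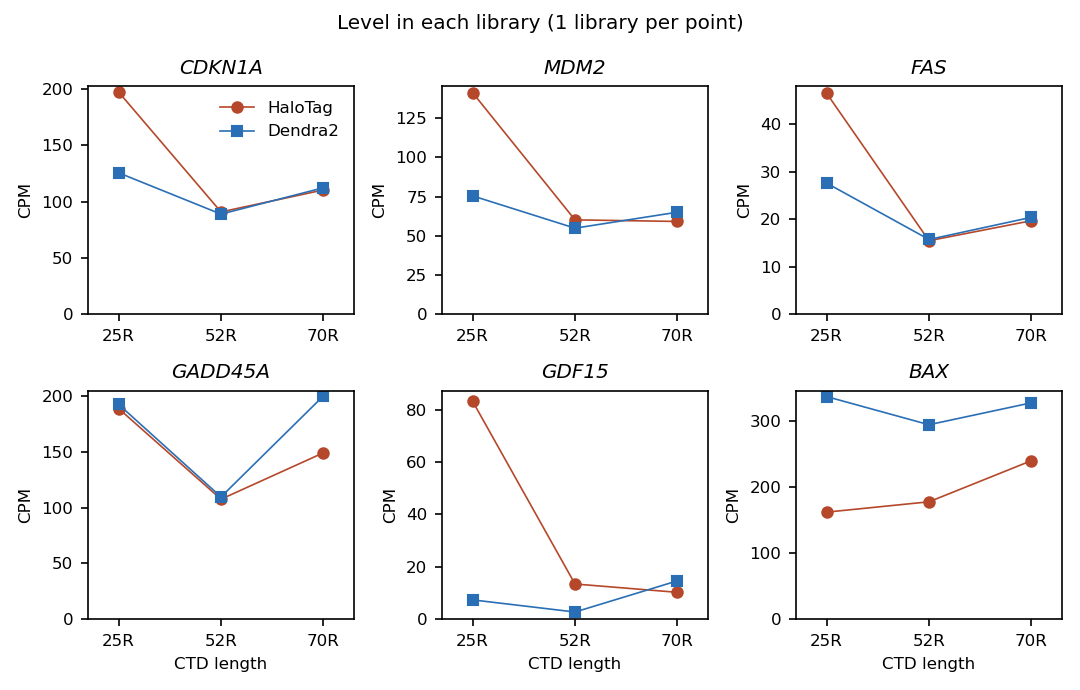
CPM of 6 p53 target genes against CTD length in HaloTag (circles) and Dendra2 (squares) cells, 1 library per point, with axes from 0 and lines that join libraries of the same tag. CDKN1A, MDM2 and FAS are highest at 25R in both tags, GADD45A is lowest at 52R in both, GDF15 reaches 83.2 CPM in HaloTag 25R cells, and BAX is lower in all 3 HaloTag libraries.

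Of the feedback genes, MDM2 and ZMAT3 were higher in 25R than in 52R cells in both tags. MDM2, the ubiquitin ligase that degrades p53, stood at 141, 60.1 and 59.1 CPM in HaloTag 25R, 52R and 70R cells and at 75.4, 54.8 and 65.0 CPM in the Dendra2 cells of these lengths. The lower 25R value exceeded the higher 52R value, with a log2 difference of 0.87 ± 0.26 (edgeR adjusted p = 0.282, DESeq2 adjusted p = 0.0674). ZMAT3, a splicing regulator, had 123 and 55.2 CPM in HaloTag and Dendra2 25R cells, against 57.9 and 34.5 CPM in 52R cells. These groups overlapped because all 3 HaloTag values were above all 3 Dendra2 values, but the difference within each tag was 1.09 and 0.68 and DESeq2 called it (adjusted p = 0.0161). PPM1D, a phosphatase that switches the p53 response off, did not share this pattern: it had 43.5 and 31.2 CPM in HaloTag and Dendra2 25R cells, against 32.98 and 36.9 CPM in 52R cells.

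The genes of mitochondrial apoptosis were split. BBC3 (PUMA), a BH3-only killer protein, had 22.3 and 28.7 CPM in HaloTag and Dendra2 25R cells, against 23.2 and 24.9 CPM in 52R cells. BAX, which permeabilises the outer mitochondrial membrane, had 162 and 337 CPM in HaloTag and Dendra2 25R cells, against 178 and 294 CPM in 52R cells. In both genes the groups overlapped and the tags pointed in opposite directions. PMAIP1 (NOXA), another BH3-only protein, had 235 and 239 CPM in HaloTag and Dendra2 25R cells, against 213 and 159 CPM in 52R cells, a log2 difference of 0.36 ± 0.17.

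TRIAP1, a small inhibitor of apoptosome formation, stood at 108 and 108 CPM in HaloTag and Dendra2 25R cells, against 56.7 and 80.7 CPM in 52R cells. PHLDA3, a repressor of AKT signalling, had 121 and 111 CPM in HaloTag and Dendra2 25R cells, against 78.3 and 94.9 CPM in 52R cells. AEN, an apoptosis-enhancing nuclease, had 27.1 and 27.8 CPM in HaloTag and Dendra2 25R cells, against 18.6 and 19.0 CPM in 52R cells, and its difference was 0.54 in each tag. TP53INP1, a p53 cofactor of autophagy and cell death with a mean of 9.81 CPM, had 19.5 and 8.06 CPM in HaloTag and Dendra2 25R cells, against 10.4 and 5.14 CPM in 52R cells. In 4 of the 7 genes of this role the 25R and 52R groups did not overlap, all with 25R higher (19.5% of all genes).

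All 4 death receptors tested had a fitted difference above 0 (50.8% of all genes). FAS, the receptor for Fas ligand, stood at 46.5, 15.5 and 19.7 CPM in HaloTag 25R, 52R and 70R cells and at 27.6, 15.8 and 20.4 CPM in the Dendra2 cells of these lengths. The tags nearly coincided at 52R and at 70R, and both 25R libraries stood above all 4 others. Its log2 difference between 25R and 52R was 1.22 ± 0.24, with an adjusted p of 0.213 by edgeR and of 0.00191 by DESeq2. TNFRSF10B, the receptor DR5 for the ligand TRAIL, had 34.4 and 22.4 CPM in HaloTag and Dendra2 25R cells, against 16.0 and 14.9 CPM in 52R cells. EDA2R, a receptor for ectodysplasin A2, had 21.7 and 13.3 CPM in HaloTag and Dendra2 25R cells, against 10.9 and 8.05 CPM in 52R cells. TNFRSF10C, a decoy receptor for TRAIL, rested on 20 and 8 UMIs in HaloTag and Dendra2 25R cells, against 7 and 5 UMIs in 52R cells, too few for a statement about its level.

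In DNA repair, RRM2B, the p53-inducible subunit of ribonucleotide reductase, had 121 and 91.7 CPM in HaloTag and Dendra2 25R cells, against 61.4 and 60.7 CPM in 52R cells. Its log2 difference was 0.80 ± 0.19 (edgeR adjusted p = 0.246, DESeq2 adjusted p = 0.0333), and the 52R libraries coincided. POLH, a translesion DNA polymerase, had 23.6 and 21.3 CPM in HaloTag and Dendra2 25R cells, against 15.9 and 15.3 CPM in 52R cells. The damaged-DNA recognition gene DDB2 had 59.7 and 58.3 CPM in HaloTag and Dendra2 25R cells, against 46.2 and 53.1 CPM in 52R cells, a difference of 0.25 ± 0.15. RPS27L, a ribosomal protein relative that modulates p53 stability, had 1569.8 and 1636 CPM in HaloTag and Dendra2 25R cells, against 1149 and 1375 CPM in 52R cells, and whether reads of its close paralogue RPS27 enter these counts was not tested. XPC, the nucleotide excision repair sensor, was the exception, with 55.6 and 49.2 CPM in HaloTag and Dendra2 25R cells, against 60.1 and 61.5 CPM in 52R cells, a log2 difference of −0.22 ± 0.15 (edgeR adjusted p = 0.570).

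Among the metabolic targets, FDXR, the mitochondrial ferredoxin reductase, had 138 and 142 CPM in HaloTag and Dendra2 25R cells, against 83.0 and 89.3 CPM in 52R cells. SESN2, a leucine sensor that restrains mTORC1, had 30.3 and 17.6 CPM in HaloTag and Dendra2 25R cells, against 13.5 and 13.04 CPM in 52R cells, and its relative SESN1 had 15.7 and 11.0 CPM in 25R cells, against 7.33 and 7.62 CPM in 52R cells. TIGAR, a fructose bisphosphatase that diverts glucose to the pentose phosphate pathway, had 94.9 and 76.9 CPM in HaloTag and Dendra2 25R cells, against 57.5 and 61.6 CPM in 52R cells. In these 4 genes the 25R and 52R groups did not overlap, with 25R higher (19.5% of all genes). TP53I3, a quinone oxidoreductase, had 83.0 and 75.0 CPM in HaloTag and Dendra2 25R cells, against 75.6 and 103.5 CPM in 52R cells, and its groups overlapped.

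Between 70R and 52R the members' median log2 difference was 0.17, beside −0.0042 over all genes, and 24 of 31 were above 0 (49.4% of all genes). The groups did not overlap with 70R higher in 10 members (13.7%) and with 70R lower in 3 (15.3%), which were XPC, DDB2 and POLH. No member was called by edgeR, where 0% of all genes were called, and none by DESeq2 (0.133% higher, 0.224% lower). At an unadjusted p under 0.05, 0 members were lower (2.61%) and 1 was higher (2.04%), GADD45A, with 149 and 200.4 CPM in HaloTag and Dendra2 70R cells, against 108 and 109.8 CPM in 52R cells (0.67 ± 0.17, edgeR adjusted p = 0.960). Without the Dendra2 70R library the median was −0.032 with 13 of 31 members above 0, and without the HaloTag 70R library it was 0.30.

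Other named members at 70R are given with the HaloTag before the Dendra2 value. FAS had 19.7 and 20.4 CPM in 70R cells, against 15.5 and 15.8 CPM in 52R cells, and CDKN1A had 110.3 and 112 CPM in 70R cells, against 90.8 and 88.9 CPM in 52R cells. RRM2B had 68.6 and 82.7 CPM in 70R cells, against 61.4 and 60.7 CPM in 52R cells. In these 3 genes both 70R libraries lay above both 52R libraries, by log2 differences of 0.36 ± 0.24, 0.31 ± 0.20 and 0.31 ± 0.19. PHLDA3 had 107 and 113 CPM in 70R cells, against 78.3 and 94.9 CPM in 52R cells, BTG2 39.1 and 34.8 CPM in 70R cells, against 26.99 and 31.1 CPM in 52R cells, and EDA2R 13.03 and 10.4 CPM in 70R cells, against 10.9 and 8.05 CPM in 52R cells. PLK3 had 12.4 and 14.3 CPM in 70R cells, against 12.3 and 8.97 CPM in 52R cells, and MDM2 had 59.1 and 65.0 CPM in 70R cells, against 60.1 and 54.8 CPM in 52R cells. The groups of EDA2R and MDM2 overlapped, and those of PLK3, PHLDA3 and BTG2 did not. GDF15 had 10.2 and 14.6 CPM in 70R cells, against 13.4 and 2.70 CPM in 52R cells, and went opposite ways in the tags.

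Against 25R, which the comparison with 52R also used, 70R cells had lower levels. The median log2 difference was −0.51, beside −0.016 over all genes, with 28 of 31 members below 0 (51.7%). It was −0.69 in the HaloTag pair and −0.17 in the Dendra2 pair. Both 70R libraries lay below both 25R libraries in 16 members (17.1%) and above them in 0 (16.5%). No member was called by edgeR (0% of all genes) or by DESeq2 (1.41% higher, 1.01% lower). At an unadjusted p under 0.05, 16 members were lower (6.19%) and 0 were higher (6.24%). The largest named differences were those of FAS (−0.86 ± 0.24), GDF15 (−0.85 ± 0.92), MDM2 (−0.75 ± 0.26), SESN2 (−0.74 ± 0.28), PLK3 (−0.71 ± 0.34), TNFRSF10B (−0.70 ± 0.25), FDXR (−0.65 ± 0.19) and ZMAT3 (−0.64 ± 0.21), and that of CDKN1A was −0.51 ± 0.20. Without the HaloTag 25R library the median was −0.20, and without the Dendra2 25R library edgeR called 4 members lower, among 746 of 19919 genes called in either direction with a single 25R library.

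Between HaloTag and Dendra2 libraries the members' median log2 difference was 0.058, beside 0.027 over all genes, and 17 of 31 were above 0 (52.6%). By CTD length it was 0.35 at 25R, −0.030 at 52R and −0.079 at 70R. No member was called by edgeR, where 0.112% of all genes were higher and 0.155% lower in HaloTag cells, and DESeq2 called 2 higher (3.02%) and 1 lower (3.16%). The tags did not overlap in 2 members with HaloTag higher (12.5%) and in 1 with HaloTag lower (11.5%). With library totals in place of trimmed means as scaling, the median over all genes moved to 0.12 and that of the members to 0.15, with 22 above 0.

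The members whose tags did not overlap were BAX, ZMAT3 and TP53INP1, in either direction no larger a part of the members than of all genes. BAX had 162, 178 and 239.8 CPM in HaloTag 25R, 52R and 70R cells, against 337, 294 and 327 CPM in the Dendra2 cells of these lengths. Every HaloTag library lay below every Dendra2 library, with a log2 difference of −0.74 ± 0.15 (edgeR adjusted p = 0.114, DESeq2 adjusted p = 0.00159). ZMAT3 had 123, 57.9 and 61.2 CPM in HaloTag 25R, 52R and 70R cells, against 55.2, 34.5 and 45.8 CPM in the Dendra2 cells of these lengths, and the groups did not overlap (0.77 ± 0.17, edgeR adjusted p = 0.122, DESeq2 adjusted p = 0.00655). TP53INP1, under the naming limit of 10 CPM and named here after its values were seen, had 19.5, 10.4 and 9.99 CPM in HaloTag 25R, 52R and 70R cells, against 8.06, 5.14 and 5.83 CPM in the Dendra2 cells of these lengths (1.02 ± 0.17, edgeR adjusted p = 0.0968, DESeq2 adjusted p = 0.000323). At an unadjusted p under 0.05, TP53INP1, ZMAT3 and EDA2R were higher (10.4% of all genes), EDA2R by 0.49 ± 0.15, and BAX was lower (9.08%). GDF15 had the largest fitted difference, 1.83 ± 0.78, and it was −0.51 at 70R against 3.50 at 25R. PLK3, PPM1D, TRIAP1, MDM2 and CDKN1A had differences of 0.51 ± 0.28, 0.34 ± 0.19, −0.31 ± 0.14, 0.30 ± 0.21 and 0.22 ± 0.17.

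Within libraries the members tracked the called cell-cycle phase. Phases were called from the expression of S and G2/M gene lists after every cell had been thinned to 5000 UMIs. In cells called G1, 27 of 30 members tested were higher than in cells called G2/M (edgeR paired by library, adjusted p under 0.05), where 31.8% of all 15234 genes were, and 1 was lower (27.5%). The members' median log2 difference was 0.55, beside 0.039 over all genes. CDKN1A had 246, 136 and 146 CPM in G1-called HaloTag 25R, 52R and 70R cells, against 149, 47.6 and 64.5 CPM in G2/M-called cells of the same libraries. In the Dendra2 25R, 52R and 70R libraries it had 199, 195 and 188 CPM in G1-called cells, against 78.7, 51.2 and 67.4 CPM in G2/M-called cells. All 6 libraries had the higher value in G1, with a log2 difference of 1.35 ± 0.12 (adjusted p = 3.47e-06). The median of G1-called cells was 9162 to 15224 UMIs and that of G2/M-called cells 13811 to 21809 UMIs in the libraries.

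**Figure D4:**
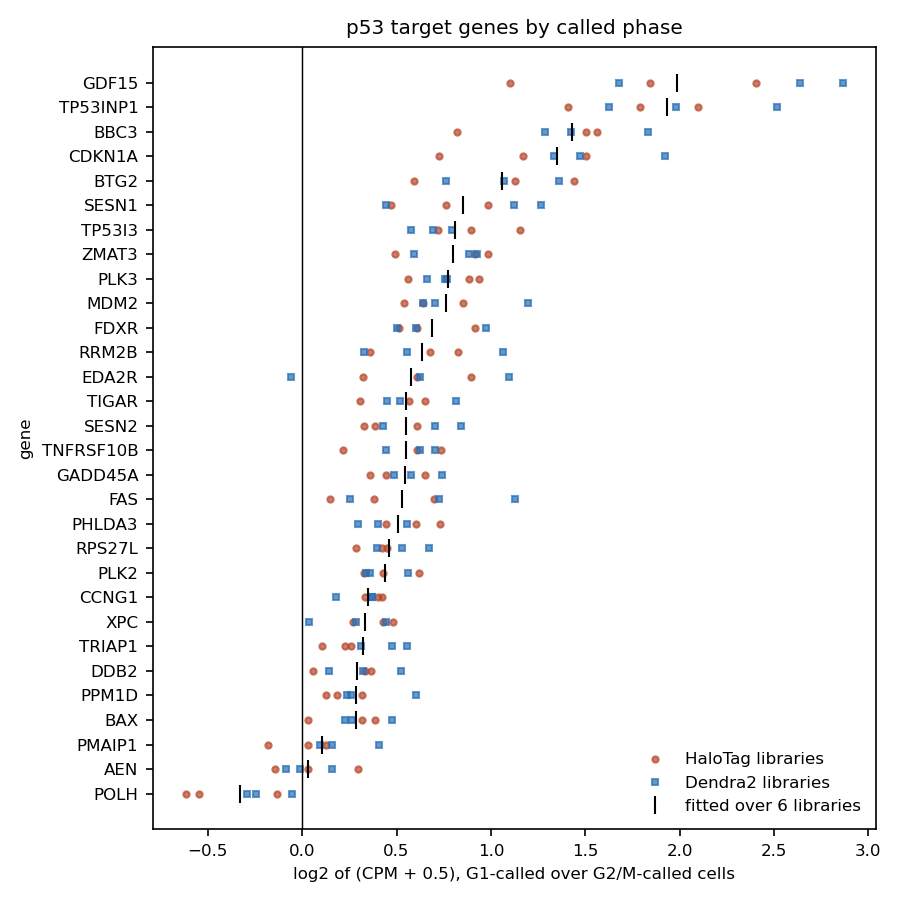
Log2 ratio of CPM plus 0.5 in G1-called over G2/M-called cells for 30 p53 target genes in each HaloTag library (circles) and Dendra2 library (squares), with the difference fitted over the 6 libraries (bars). GDF15, TP53INP1, BBC3 and CDKN1A lie farthest to the right, and POLH lies left of 0 in all 6 libraries.

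Beside CDKN1A, the largest differences were those of GDF15 (1.99 ± 0.21), TP53INP1 (1.93 ± 0.13), BBC3 (1.43 ± 0.10) and BTG2 (1.06 ± 0.10), each higher in G1-called cells of 6 of 6 libraries, all with adjusted p of at most 1.59e-05. BBC3 thus had one of the largest phase differences while its fitted difference between 25R and 52R was 0.077 ± 0.17. SESN1 (0.85 ± 0.12), TP53I3 (0.81 ± 0.065), ZMAT3 (0.80 ± 0.068), PLK3 (0.77 ± 0.066) and MDM2 (0.76 ± 0.073) followed. The other 17 members called higher were FDXR, RRM2B, EDA2R, TIGAR, SESN2, TNFRSF10B, GADD45A, FAS, PHLDA3, RPS27L, PLK2, CCNG1, XPC, TRIAP1, DDB2, PPM1D and BAX, with differences between 0.28 for BAX and 0.69 for FDXR. POLH was lower in G1-called cells of every library (−0.33 ± 0.078, adjusted p = 0.00370), while PMAIP1 (0.11 ± 0.060, adjusted p = 0.155) and AEN (0.033 ± 0.063, adjusted p = 0.673) were not called. The phase calls read RNA, so a member that follows the cycle and a cycle call that follows arrested cells cannot be told apart.

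The share of G1-called cells moved with the groups. It was 43.9%, 40.2% and 43.6% in HaloTag 25R, 52R and 70R cells and 23.2%, 19.4% and 27.6% in Dendra2 25R, 52R and 70R cells. In G1-called cells alone the members' median between 25R and 52R was 0.39, with 25 of 30 above 0, and in S-called and G2/M-called cells alone it was 0.66 and 0.79. Between 70R and 52R the median was 0.0098 in G1-called cells, 0.25 in S-called cells and 0.19 in G2/M-called cells. Median mitochondrial share was 6.85% and 5.99% in HaloTag and Dendra2 25R cells, against 8.86% and 6.13% in 52R cells, and its part in the result was not tested.

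The authors' kinetic tables give for each gene and library a mean, a squared coefficient of variation and a parameter K, used here as burst frequency, each with a lower and an upper limit. The mean divided by K was taken as burst size. For 97.4% to 99.99% of genes with a mean over 0.05 UMIs, the squared coefficient of variation equalled the inverse of K plus the inverse of the mean, within 1%. A gene with less cell-to-cell spread at a given mean therefore has a larger K. Across the 21166 genes with a UMI in every library, limma called 0 members in either quantity (0% of all genes for frequency in either direction, and 0% higher and 0.0189% lower for size), a fit that recovered 0% of simulated 4-fold changes. Where the mean reached 0.5 UMIs per cell, in 4355 genes of which 19 are members, the fit recovered 87% and 100% of simulated 2-fold and 4-fold changes, with 19 false calls, and called 0 members there too, for frequency (0% of genes higher, 0.0459% lower) and for size (0.276% higher, 0.436% lower).

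In those 19 members the burst frequency was mostly higher in 25R than in 52R cells. The median log2 difference was 0.31, beside −0.13 over all 4355 genes. Of the 19 members 17 were above 0, and the share of all 4355 genes above 0 was not counted. At an unadjusted p under 0.05, 6 members were higher (1.24%), CDKN1A, RRM2B, ZMAT3, MDM2, FDXR and BTG2, and 1 was lower (6.96%), TP53I3. After each library was centred on its median over genes, 11 members were higher (5.30%) and 0 lower (3.79%). The limits of K did not overlap, with 25R higher, in 10 members of the HaloTag pair (10.3% of genes), in 7 of the Dendra2 pair (1.22%), and in 5 of both (0.735%). With 25R lower they did not overlap in 2 members of the HaloTag pair (5.17%), TRIAP1 and TP53I3, in 0 of the Dendra2 pair (25.1%) and in 0 of both (2.53%).

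CDKN1A had a K of 1.54 and 0.854 in HaloTag and Dendra2 25R cells, against 0.709 and 0.601 in 52R cells, and 0.790 and 0.719 in 70R cells. RRM2B had 2.87 and 1.82 in HaloTag and Dendra2 25R cells, against 1.31 and 1.30 in 52R cells, and MDM2 had 1.25 and 1.16 in 25R cells, against 0.782 and 0.896 in 52R cells. ZMAT3 had 2.04 and 1.33 in HaloTag and Dendra2 25R cells, against 1.25 and 0.941 in 52R cells, and GADD45A had 1.43 and 1.43 in 25R cells, against 1.12 and 1.20 in 52R cells. In these 5 genes the limits of 25R and 52R did not overlap in either tag. Burst size had a median log2 difference of 0.13 over the 19 members, beside 0.12 over all 4355 genes, and at an unadjusted p under 0.05 it was higher in 2 of them (4.73%), TRIAP1 and TP53I3, and lower in 0 (3.10%).

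TP53I3 ran the other way in HaloTag 25R cells, where K was 0.857 with limits of 0.787 and 0.937. In the other 5 libraries it was between 2.13 and 3.26, although the mean of 1.42 UMIs per cell in HaloTag 25R cells lay inside the 1.00 to 1.94 of the others. After thinning to 5000 UMIs, the 5% of cells with the most TP53I3 held 34.0% of its UMIs in HaloTag 25R cells, against 26.3% to 29.7% in the other libraries. GDF15 had a K of 0.405 in HaloTag 25R cells and of 0.0256 to 0.0856 in the other 5 libraries.

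**Figure D5:**
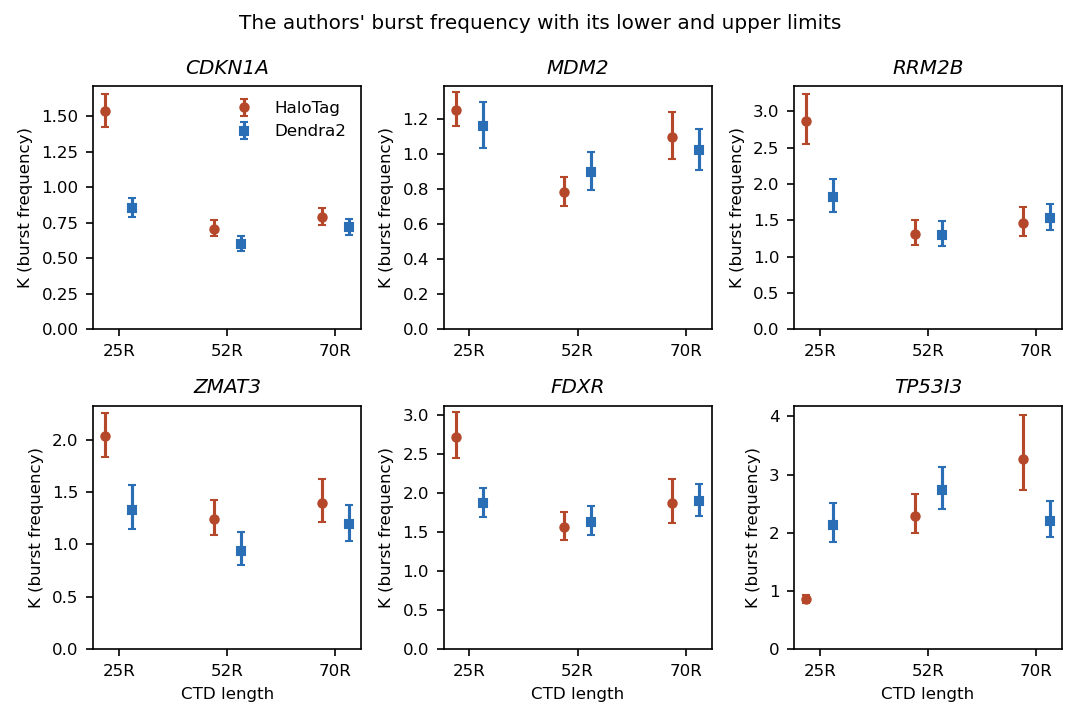
The authors' parameter K, used as burst frequency, for 6 p53 target genes against CTD length in HaloTag (circles) and Dendra2 (squares) cells, with bars from its lower to its upper limit and axes from 0. CDKN1A, MDM2, RRM2B and ZMAT3 have higher K at 25R than at 52R in both tags, and TP53I3 is lowest, at 0.857, in HaloTag 25R cells.

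Other genes of the pathway were read from lists that share no member with the 33. Of 33 tested among 34 other p53 targets, 29 were above 0 between 25R and 52R (50.8% of all genes). The median was 0.32, and none was called by edgeR. Those with the smallest p were DRAM1, a lysosomal autophagy gene (25.6 and 26.5 CPM in HaloTag and Dendra2 25R cells, against 15.4 and 13.8 CPM in 52R cells), KITLG, the ligand of the receptor KIT (10.6 and 11.9 CPM in 25R cells, against 4.48 and 7.70 CPM in 52R cells), BLOC1S2, an organelle biogenesis subunit (94.5 and 87.4 CPM in 25R cells, against 48.4 and 64.4 CPM in 52R cells), and CYFIP2, of the WAVE actin complex (33.3 and 27.6 CPM in 25R cells, against 23.7 and 17.3 CPM in 52R cells). DESeq2 called 3 of the list higher, where it called 1.03% of all genes.

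Of the 24 regulators of p53 tested among 26, 9 were above 0 between 25R and 52R (50.8% of all genes). Their median was −0.064. The regulators with the smallest p were lower in 25R, namely HIPK2, a kinase of p53 (−0.72 ± 0.18), PPP1R13B, the p53 cofactor ASPP1 (−1.02 ± 0.26), and TP53BP1, the break-repair adaptor 53BP1 (−0.73 ± 0.20), with edgeR adjusted p of 0.249, 0.2504 and 0.263. ATR, the replication stress kinase, had 0.32 ± 0.17.

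Cell-cycle genes that p53 lowers through p21 and the DREAM repressor complex had a median of −0.073 between 25R and 52R. Of these 25 genes 4 were above 0 (50.8% of all genes), and none was called by edgeR or DESeq2. Those with the smallest p were BUB1B (−0.62 ± 0.20), MYBL2 (−0.68 ± 0.22), CDK1 (−0.29 ± 0.17) and MCM5 (−0.28 ± 0.18). Between HaloTag and Dendra2 cells the median of this list was −0.28. DESeq2 called 4 of its genes lower (3.16% of all genes), BIRC5, E2F1, FOXM1 and CKS1B. The G1-called share was 40.2% to 43.9% in HaloTag and 19.4% to 27.6% in Dendra2 libraries, and its part was not tested. In the 17 targets of ATF4, the transcription factor of the integrated stress response, the median between 25R and 52R was 0.075, with 0.45 in the HaloTag pair and −0.28 in the Dendra2 pair, with ATF5 (−0.54 ± 0.17), STC2 (1.30 ± 0.57, at 0.0782 to 0.354 CPM too few counts for a statement about its level), PHGDH (−0.42 ± 0.18) and SLC7A11 (0.82 ± 0.41) among those of smallest p. In G1-called against G2/M-called cells, where 31.8% of all genes were called higher and 27.5% lower, 22 of 32 other p53 targets were higher and 3 lower. Of the regulators 2 of 24 were higher and 13 lower, and of the ATF4 targets 4 of 16 were higher and 9 lower. The DREAM list is not read by phase, because it holds the kind of genes that the phase calls use, some of them in both lists.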

How the data were processed

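The samples are droplet-based 3′ RNA libraries of U2OS cells, per the labels' protocols. The submitters' processing notes name bcl2fastq and the build GRCh38. The matrices of UMI counts were written by Cell Ranger 6.1.2, going by the file headers, and raw counts were used as the authors deposited them. The authors also deposited kinetic tables (mean, K and squared coefficient of variation per gene). Neither the tool behind them nor the confidence level of their limits is stated in the labels or headers.

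Barcodes with fewer than 500 genes or over 20% mitochondrial counts were dropped, 2.01% to 3.03% of each library. Doublets were not called. UMIs of the tag sequence stayed out of library sizes and tests. Counts summed per library passed filterByExpr, were scaled by trimmed means (TMM) and fitted in edgeR 4.0.16 (R 4.3.3) with tag and CTD length as terms over the 6 libraries. The p-values were adjusted by Benjamini-Hochberg across every gene in the fit. Because a genotype has 1 library, how far the 2 tags differ in their CTD effect was the error term, on 2 residual degrees of freedom. The fits moderated each gene's spread with that of other genes, so p-values rest on more than its own 2 degrees of freedom. They measure the spread between these libraries. The 3 CTD comparisons share libraries. DESeq2 1.42.0 was run beside it. Phase scores drew 50 control genes for each list gene from 25 bins of expression, and the phase test kept the library as a block. For burst frequency and size, limma 3.58.1 was fitted to log10 values. The restriction to genes with a UMI in every library was made after the tables were seen to list values for genes without any.

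The members, the role and pathway lists and the tests were chosen with earlier results of these data known. Every member with a mean of at least 10 CPM was named between 25R and 52R, up to 8 with the largest differences elsewhere, with CDKN1A and MDM2 always, and up to 4 genes of smallest p per pathway list. Promoters came from RefSeq (GRCh38.p14) and sites from GRCh38. MDM2, FAS, TIGAR, PHLDA3, BBC3 and TNFRSF10C share exonic sequence on the same strand with another annotated gene in GENCODE v44. The tests were tested on simulated data. Python 3.11.15 was used for the rest.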

Additional observations from a re-analysis of the deposited data

Results flagged for a closer look

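Several members went opposite ways with the tags under the same change of CTD length. Each value is the log2 difference in the HaloTag pair, then in the Dendra2 pair, then the first minus the second, with 1 library on each side, and none of these differences was tested. Between 25R and 52R, PPM1D had 0.40 and −0.24 (0.64), TP53I3 0.13 and −0.47 (0.60), BBC3 −0.056 and 0.20 (−0.26), and BAX −0.13 and 0.19 (−0.33). Between 70R and 52R, GDF15 had −0.39 and 2.42 (−2.81), and MDM2 −0.025 and 0.25 (−0.27). Between 70R and 25R, GDF15 had −3.02 and 0.99 (−4.01), and PLK3 −1.44 and 0.039 (−1.48).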

How the results depend on the processing

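Another scaling (RLE factors or library totals), all barcodes and, but for HaloTag against Dendra2, no filter left the number of members called by edgeR at 0. DESeq2 called 6 members between 25R and 52R and 3 between the tags, and without a filter edgeR called 2 between the tags. With G1-called cells only, the members' median was 0.39 for 25R against 52R and 0.0098 for 70R against 52R. Leaving out each library in turn gave 0 to 11 members called for 25R against 52R (11 without Dendra2 25R, where 782 of 19919 genes were called), 0 to 4 for 70R against 25R, 0 to 1 for HaloTag against Dendra2, and medians of −0.032 to 0.30 for 70R against 52R. S-called and G2/M-called cells, the Dendra2 25R library alone and the centred kinetic values of well-counted genes were alternatives chosen after seeing the data. No pairing by replicate number could be made between CTD lengths or tags, since the numbers mark sequencing runs of 1 library, and the tag itself was a term of those fits. For phase, 28 members were called with the library as block (31.8% of all genes higher, 27.5% lower) and 9 with no replicate block (6.29% and 8.73%).

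Signs reversed as follows. With library totals BAX had −0.011 for 25R against 52R. In G1-called cells only, PPM1D had −0.054, BBC3 −0.31 and BAX −0.18 for 25R against 52R, EDA2R −0.048 and MDM2 −0.20 for 70R against 52R, and CDKN1A −0.17 between tags. In S-called cells PPM1D had −0.014. With each library left out in turn, values for 25R against 52R ran from −0.30 to 0.45 for PPM1D, −0.058 to 0.21 for BBC3, −0.19 to 0.25 for BAX and −0.44 to 0.10 for TP53I3. For 70R against 52R they ran from −0.69 to 2.74 for GDF15, −0.20 to 0.86 for PLK3 and −0.22 to 0.42 for MDM2, and for 70R against 25R from −2.76 to 0.67 for GDF15. Between tags they ran from −0.027 to 0.51 for MDM2 and −0.022 to 0.33 for CDKN1A. The cause was not tested. Depth limits TNFRSF10A, TNFRSF10C and SPATA18.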
